A study of Rattus norvegicus with 12 samples.

Results

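The NADPH oxidase genes described here are Cybb, Cyba, Ncf1, Ncf4, Rac1, Rac2, Nox1 and Nox4, chosen by name from the deposited gene table. All 8 were found, each once, among 30560 genes, and 6 of them had enough counts to be tested. The libraries were made from total RNA of the retina of 12 rats, 1 library per rat. The first 6 rats (NMDA 1 to NMDA 6) had 2 µL of 20 mM NMDA injected into the vitreous, the gel in front of the retina. The other 6 (PBS 1 to PBS 6) had 2 µL of PBS, the saline vehicle, by the same route. NMDA activates glutamate receptors and in excess injures inner retinal neurons, and the series title calls the rats a glaucoma model. The strain, age, sex and time from injection to collection are not given in the sources used here.

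A NADPH oxidase passes electrons from NADPH across a membrane to oxygen and so makes superoxide. In the phagocyte form, known from neutrophils, macrophages and microglia, the catalytic subunit gp91phox (Cybb, also called NOX2) sits in the membrane with p22phox (Cyba). It becomes active when cytosolic subunits, among them p47phox (Ncf1) and p40phox (Ncf4), and a RAC GTPase join it. NOX1 and NOX4 are other catalytic subunits that also pair with p22phox. NOX1 is best known from colon epithelium, and NOX4, known from kidney, makes hydrogen peroxide without the cytosolic subunits.

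Promoter sequences were matched in RefSeq (GRCr8) for Cybb, Cyba, Ncf1, Nox1 and Nox4, 5 of the 8 genes. The 250 bases before the annotated start of Cybb (chrX:16065066-16065315, minus strand) and of Ncf1 (chr12:28121635-28121884, plus strand) are shown because these 2 genes rose together and their windows hold a motif that was searched. They are written 5′ to 3′ on the strand of the gene, and capitals mark the motif matches.
Cybb: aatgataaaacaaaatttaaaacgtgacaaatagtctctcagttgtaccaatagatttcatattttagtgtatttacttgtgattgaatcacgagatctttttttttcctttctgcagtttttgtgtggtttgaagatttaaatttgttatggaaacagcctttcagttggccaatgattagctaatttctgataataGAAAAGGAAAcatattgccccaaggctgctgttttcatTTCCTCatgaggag
Ncf1: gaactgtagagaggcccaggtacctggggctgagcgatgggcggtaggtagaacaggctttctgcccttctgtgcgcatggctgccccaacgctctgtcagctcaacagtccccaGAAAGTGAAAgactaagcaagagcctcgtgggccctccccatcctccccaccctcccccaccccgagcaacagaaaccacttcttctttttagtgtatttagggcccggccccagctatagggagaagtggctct
The motifs were GAGGAA, the core bound by PU.1 and other ETS factors of myeloid cells, and the interferon response pattern, GAAA, any 2 bases and GAAA, bound by interferon regulatory factors. Both strands were searched. In the Cybb window the GAGGAA match lies on the opposite strand, with 8 bases between it and the start, and the interferon response pattern ends 42 bases before the start. The Ncf1 window holds an interferon response pattern that ends 125 bases before the start. The matches do not overlap each other. Of 33469 rat promoters of the same length, 23.3% held GAGGAA and 3.41% held the interferon response pattern. The window of Nox1, which had next to no counts, also held GAGGAA, and neither motif was found in the windows of Cyba and Nox4.

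Library totals ran from 16415611 to 34022023 counts, and CPM here means counts divided by the TMM-adjusted size of the library. Markers of rods, the most numerous retinal neurons, summed to 35304 to 50203 CPM in NMDA libraries and 48887 to 52138 CPM in PBS libraries. In an edgeR quasi-likelihood test of 16260 genes with Benjamini-Hochberg adjustment over all of them, 37.9% passed an adjusted p of 0.05, 20.4% higher and 17.5% lower with NMDA. In 3 libraries markers of other tissue stood apart. Pigment epithelium markers summed to 731 CPM in NMDA 3 and 543 CPM in PBS 5, against 40.3 to 121 CPM in the other NMDA and 164 to 251 CPM in the other PBS libraries, and lens markers to 68.9 CPM in NMDA 1, against 541 to 2916 CPM elsewhere.

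The phagocyte oxidase genes rose after NMDA. Of the 8 members, 6 were tested and all 6 passed as higher, against the 20.4% of all tested genes. Cybb, Cyba, Ncf1, Ncf4 and Rac2 were at least 2-fold higher, a change found in 4.58% of tested genes. In these 5 every NMDA library lay above every PBS library, as in 9.43% of tested genes (8.66% had every NMDA library below every PBS library, 18.1% either way). A fit without NMDA 1, NMDA 3 and PBS 5 was added after the data were seen. Its log2 fold changes were 3.03 for Cybb, 1.57 for Cyba, 2.26 for Ncf1, 3.35 for Ncf4 and 2.97 for Rac2, all past the threshold (edgeR). PBS 5 was the highest PBS library for Cybb, Cyba, Ncf4 and Rac2. NMDA 1 was the lowest NMDA library for Cyba, Ncf4 and Rac2, and NMDA 3 for Ncf1. Leaving these libraries out raises the fold changes by itself, so that this fit adds no support. Rac1 was 1.13-fold higher with overlapping groups. Nox1 and Nox4 had too few counts for a test. In bulk tissue more cells of a type and more RNA per cell cannot be told apart.

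**Figure D1:**
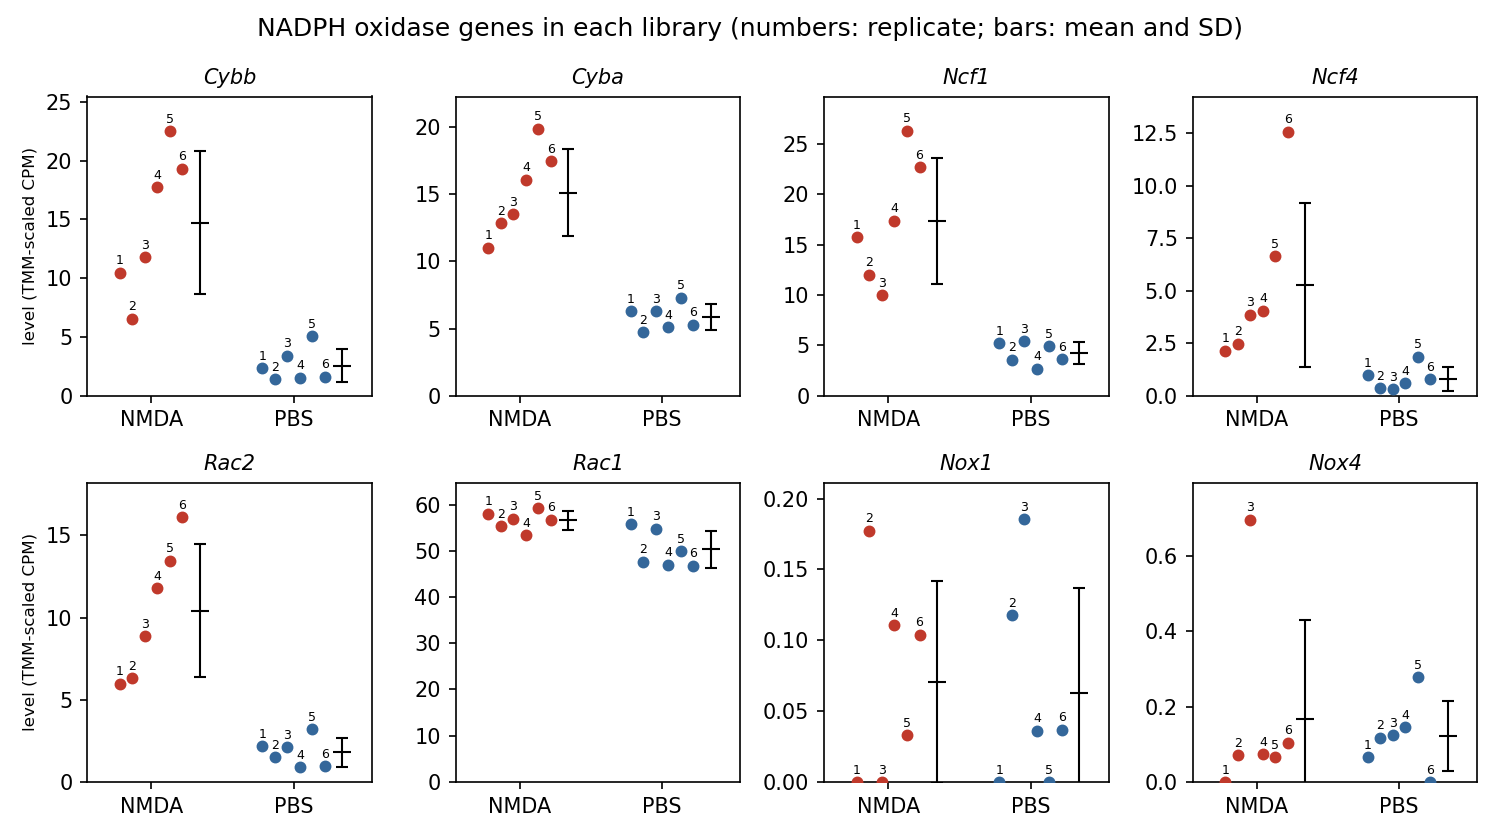
Level of each of the 8 genes in every library (vertical axis, TMM-scaled CPM from 0), NMDA on the left and PBS on the right, with points numbered by replicate and bars for the mean and SD (n = 6 each), which are cut at 0. Cybb, Cyba, Ncf1, Ncf4 and Rac2 have all NMDA points above all PBS points, Rac1 overlaps, and Nox1 and Nox4 stay under 1 CPM.

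Cybb encodes gp91phox, the subunit that carries the electrons (ENSRNOG00000003622, chromosome X, 13359430 to 13392586 in the authors' coordinates, with the build not given in the sources used here). Its level was lowest at 6.56, with a median of 14.8 and a maximum of 22.5 CPM, in NMDA libraries, against 1.41, 1.98 and 5.04 CPM in PBS libraries. NMDA 5 and NMDA 6 were highest, and PBS 5, the highest PBS library, stayed below NMDA 2, the lowest NMDA library. Means were 14.7 ± 6.08 CPM with NMDA and 2.56 ± 1.43 CPM with PBS (SD, n = 6 each). The gene rose 5.81-fold (log2 2.54 ± 0.38, SE; edgeR adjusted p = 0.000399).

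Cyba encodes p22phox, which stabilises the catalytic subunit in the membrane (ENSRNOG00000013014, chromosome 19, 50487597 to 50495721). It ran from 11.0 through a median of 14.8 to 19.9 CPM in NMDA libraries and from 4.74 through 5.79 to 7.30 CPM in PBS libraries. The highest and lowest libraries were NMDA 5 and NMDA 1 in the one group and PBS 5 and PBS 2 in the other. Cyba rose 2.60-fold (log2 1.38 ± 0.15, SE; edgeR adjusted p = 5.45e-05), the smallest rise of the 5 and the one with the smallest SE.

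The cytosolic subunit genes Ncf1 and Ncf4 followed. Ncf1 encodes p47phox, the organiser that carries the cytosolic subunits to the membrane (ENSRNOG00000001480, chromosome 12, 22485451 to 22494646). It had a lowest level of 9.99, a median of 16.6 and a highest of 26.3 CPM in NMDA libraries, and 2.68, 4.29 and 5.38 CPM in PBS libraries. NMDA 3 was lowest and NMDA 5 highest. The rise was 4.10-fold (2.04 ± 0.25, SE; edgeR adjusted p = 0.000126). Ncf4 encodes p40phox, which binds a membrane lipid of phagosomes (ENSRNOG00000006940, chromosome 7, 109826020 to 109843389). Its counts were low, 56 to 363 per library with NMDA and 5 to 47 with PBS, or 2.15 to 12.6 CPM against 0.309 to 1.86 CPM. NMDA 6 alone reached 12.6 CPM, with the next library, NMDA 5, at 6.65 CPM. The rise of 6.39-fold was the largest of the members and the least precise (2.67 ± 0.53, SE; edgeR adjusted p = 0.00183). Without NMDA 6 it was 2.21 on the log2 scale, and without PBS 5 it was 3.09.

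The 2 RAC genes differed. Rac2, the GTPase of blood-derived cells (ENSRNOG00000007350, chromosome 7, 110116260 to 110128720), had 5.98, 6.31, 8.86, 11.8, 13.5 and 16.1 CPM in NMDA 1 to NMDA 6. It had 2.18, 1.49, 2.10, 0.907, 3.21 and 0.96 CPM in PBS 1 to PBS 6. The groups did not overlap, and the rise was 5.78-fold (2.53 ± 0.35, SE; edgeR adjusted p = 0.000222). Rac1, the GTPase made in nearly all cells (ENSRNOG00000001068, chromosome 12, 11036698 to 11057251), had 53.3 to 59.3 CPM in NMDA libraries and 46.8 to 55.8 CPM in PBS libraries. PBS 1 and PBS 3 lay within the NMDA range. Rac1 rose by 0.17 ± 0.05 (log2, SE; edgeR adjusted p = 0.0217), and its call ended without NMDA 1, PBS 2, PBS 4 or PBS 6 (adjusted p up to 0.0524), and without NMDA 1, NMDA 3 and PBS 5 (0.110). By FPKM, which divides by gene length, Rac2 made up 13.6% ± 4.58 of the summed Rac1 and Rac2 level with NMDA and 2.97% ± 1.33 with PBS (SD, n = 6 each). The Rac genes are close relatives, and how reads with several matches were counted is not given in the sources used here, so that their split is uncertain.

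Nox1 and Nox4 stayed at the edge of detection. Nox1 (ENSRNOG00000048706, chromosome X, 97279056 to 97302236) had 0 to 5 counts per NMDA library and 0 to 3 per PBS library, 12 and 8 counts in all. It shares 421 bases with the end of Cstf2, an RNA processing gene with 1668 to 3459 counts per library, and strandedness was not given, so that the origin of these few reads is uncertain. Nox4 (ENSRNOG00000013925, chromosome 1, 140901097 to 141077406) had 0, 2, 24, 2, 2 and 3 counts in NMDA 1 to NMDA 6 and 2, 3, 2, 4, 7 and 0 counts in PBS 1 to PBS 6. Apart from NMDA 3, no library had more than 7 counts of Nox4. A level up to that of 3 counts, 0.0871 to 0.186 CPM depending on the library, cannot be told from 0 at this depth, counting error alone considered. Fitted without a count filter, Nox1 and Nox4 were at 0.31 ± 0.90 and 0.54 ± 0.82 (log2 fold change with SE; adjusted p by edgeR 0.849 and 0.690), so that a difference was not detectable at this depth.

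Per gene length, the 6 tested members stood in the same order in both groups. In FPKM, Rac1 was highest (23.5 ± 0.964 with NMDA, 20.1 ± 1.60 with PBS), then Cyba (12.9 ± 2.96 and 4.80 ± 0.807). Ncf1 followed at 5.50 ± 2.04 and 1.30 ± 0.335 FPKM, and Cybb at 5.12 ± 2.16 and 0.857 ± 0.483 FPKM (NMDA and PBS, SD, n = 6 each). Rac2 had 3.75 ± 1.50 FPKM with NMDA and 0.628 ± 0.307 with PBS, and Ncf4 had 3.55 ± 2.66 and 0.523 ± 0.373 FPKM. With NMDA the neighbours among Ncf1, Cybb, Rac2 and Ncf4 differed by less than the SD of either, and with PBS so did Cybb, Rac2 and Ncf4, whereas Ncf1 and Cybb differed by more than the SD of Ncf1 and less than that of Cybb. Cyba and Rac1 stood above them in both groups. The FPKM of Cybb was 0.385 ± 0.0964 of that of Cyba with NMDA and 0.17 ± 0.0661 with PBS.

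The members did not rise equally. A log2 ratio of the counts of 2 genes in the same library does not depend on the scaling of libraries, and NMDA and PBS were set against each other for all 15 pairs of the 6 tested members with a two-sided exact permutation test, whose smallest possible p is 0.00217. Of these pairs 9 had an unadjusted p under 0.05. They were the 5 pairs with Rac1 and the 4 pairs of Cyba with Cybb, Ncf1, Ncf4 or Rac2. Cybb gained on Cyba by 1.20 on the log2 scale (exact p = 0.00649) and Rac2 on Cyba by the same 1.20 (exact p = 0.00217). Among Cybb, Ncf1, Ncf4 and Rac2 no pair of 6 passed. The log2 ratio of Cybb over Rac2 was 0.48 ± 0.29 with NMDA and 0.47 ± 0.36 with PBS (SD, n = 6 each), and Ncf4 over Ncf1 gained 0.67 (exact p = 0.188).

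**Figure D2:**
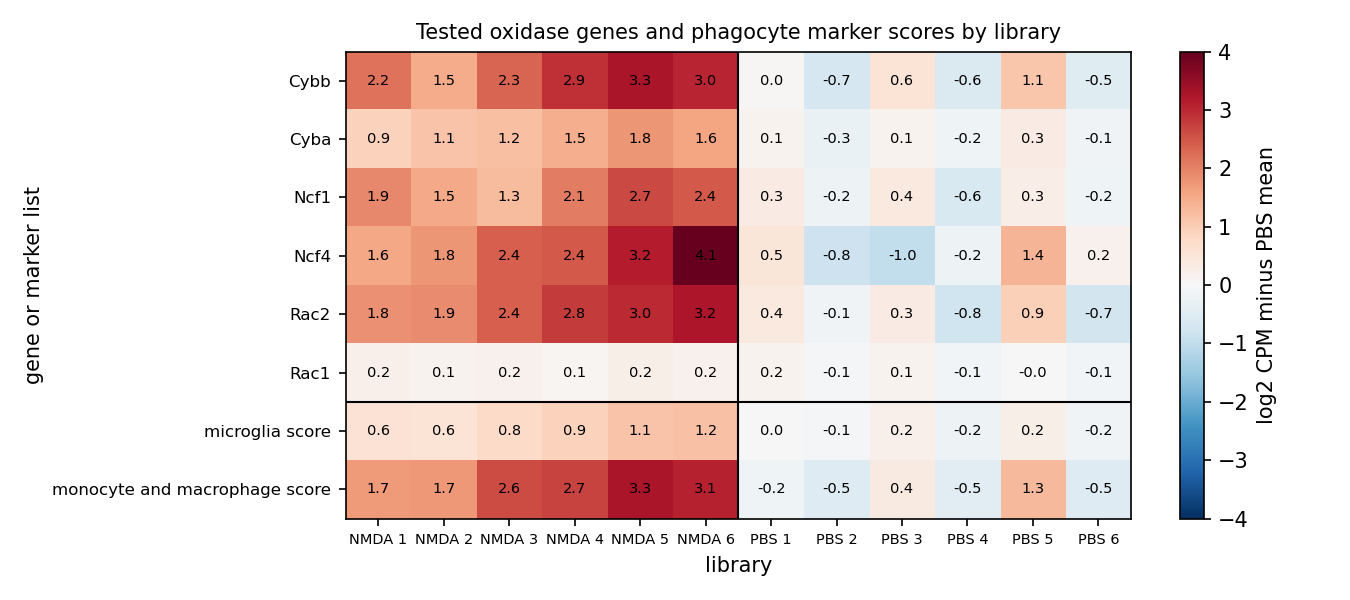
Log2 CPM minus the PBS mean (colour scale and printed values) of the 6 tested members and of 2 phagocyte marker scores (rows) in each library (columns), NMDA on the left and PBS on the right of the vertical line. Cybb, Cyba, Ncf1, Ncf4, Rac2 and both scores are above the PBS mean in every NMDA library, PBS 5 is highest of its group for Cybb, Cyba, Ncf4 and Rac2, and Rac1 differs from the PBS mean by at most 0.24.

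The NMDA libraries ranked alike for the 5 genes that rose at least 2-fold, and the PBS libraries did so less for the pairs with Ncf4. Over the PBS libraries Spearman's correlation of Ncf4 was 0.43 with Cybb, 0.43 with Cyba, 0.49 with Rac2 and 0.03 with Ncf1. Over the 6 NMDA libraries the Pearson correlations of log2 CPM between Cybb, Cyba, Ncf1, Ncf4 and Rac2 ran from 0.67 to 0.94 (Spearman's 0.71 to 1.00, 10 pairs), and over the 6 PBS libraries from 0.24 to 0.96 (Spearman's 0.03 to 1.00). They are given as a description, since the libraries share their scaling. With Rac1 the 5 correlations ran from 0.03 to 0.33 over the NMDA libraries and from 0.01 to 0.85 over the PBS libraries. Over all 12 libraries, after the group means were taken off, the genes most like Cybb were Ptprc (Pearson r = 0.95), Slfn4 and Ctsz. For Cyba they were Adgre1 (0.94), Ptpn6 and Ctsc, and for Rac2 Pdlim1 (0.96), Plek and Ptprc. For Ncf4 they were Ifi30 (0.94), Lrrc25 and Sipa1, and for Ncf1 AABR07030162.1 (0.94), Tbxas1 and Phf20. Rac1 was most like Pwwp2a (0.88), Tmem106c and Cmc2.

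Markers of phagocytes moved with the oxidase genes. For the counts that follow, 20.4% of all tested genes were higher and 17.5% lower. Of 16 microglia markers 10 were higher and 1, P2ry12, lower (edgeR), and their sum was 189 to 296 CPM in NMDA libraries and 128 to 158 CPM in PBS libraries. Cx3cr1, Tyrobp, Cd68 and Itgam, genes of a chemokine receptor, a signalling adaptor, a lysosomal protein and an integrin chain, rose by 1.16, 2.31, 2.85 and 1.997 on the log2 scale. Of 11 tested monocyte and macrophage markers 9 were higher and none lower, with sums of 97.8 to 298 CPM with NMDA and 15.5 to 50.9 CPM with PBS. Ly6c, Cd14, Lgals3 and Msr1, genes of a monocyte antigen, a receptor for bacterial products, a galectin and a scavenger receptor, rose by 3.63, 3.07, 2.89 and 4.09. The 3 neutrophil markers with enough counts for a test, Mmp9, Csf3r and S100a9, were higher, each with overlapping groups. S100a9 had 6, 1, 0, 0, 22 and 0 counts in PBS 1 to PBS 6. It passed the count filter mainly through NMDA libraries, so that its direction is no separate support. NMDA 6 had 25.1 CPM of Csf3r and 13.7 CPM of S100a9, and NMDA 5, the next, 9.81 and 2.86 CPM. The sum of all 11 markers was 5.52 to 64.7 CPM with NMDA and 2.29 to 6.66 CPM with PBS, highest in NMDA 6. The other neutrophil markers had too few counts for a test. Cxcr2 averaged 2.93 CPM with NMDA and 0.133 CPM with PBS, and S100a8 1.42 and 0.109 CPM. Mpo averaged 0 and 0.0395 CPM and Ngp 0.291 and 0.454 CPM. Elane, Camp, Retnlg and Ltf averaged at most 0.141 CPM in either group. Of 9 endothelial markers 5 were higher, among them Flt1 by 0.60, Pecam1 by 0.47, Emcn by 0.55 and Tek by 0.43 (log2), and of 8 pericyte and smooth muscle markers 1 was higher and 1 lower. Of 4 tested lymphocyte markers 2 were higher and 1 lower. Of 9 pigment epithelium markers 4 were lower, of 11 lens markers none changed by this test, and of 8 rod markers 6 were lower. The part of these cell types in the rise of the oxidase genes was not tested.

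The level of a member was also set against these markers in each library, as its log2 CPM minus the mean log2 CPM of a marker list. Against the 16 microglia markers Cybb was higher by 1.67 on the log2 scale with NMDA (0.73 ± 0.43, against -0.95 ± 0.55 with PBS, SD, n = 6 each; exact permutation p, two-sided, 0.00217). Rac2 was higher by 1.66, Ncf1 by 1.12 and Cyba by 0.49 (exact p = 0.00217 each), and Ncf4 by 1.70 with overlapping groups (exact p = 0.00433). Rac1 was lower by 0.69 on this measure (exact p = 0.00217). Against the 11 monocyte and macrophage markers the differences of Cybb, Ncf4 and Rac2 were 0.0107, 0.0378 and -0.00536 (exact p = 0.944, 0.920 and 0.981). Ncf1 was at -0.54 (exact p = 0.123), Cyba at -1.17 (exact p = 0.00649) and Rac1 at -2.35 (exact p = 0.00217). Of the members higher against the microglia markers, Cyba was thus lower against the monocyte and macrophage markers, and the others did not pass. These are 12 comparisons with unadjusted p.

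**Figure D3:**
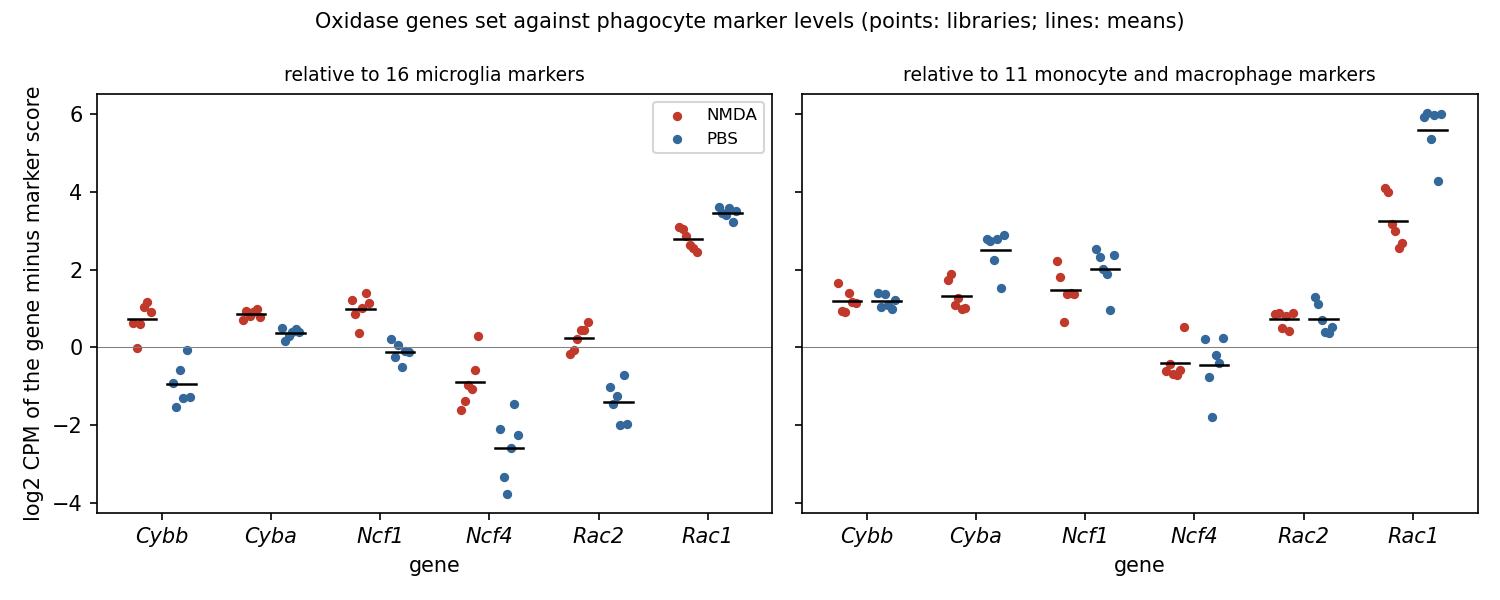
Log2 CPM of each tested member minus the mean log2 CPM of 16 microglia markers (left) or 11 monocyte and macrophage markers (right), a point per library and a line for the mean, NMDA left of PBS for each gene. On the left the NMDA means of Cybb, Cyba, Ncf1, Ncf4 and Rac2 lie above the PBS means, and on the right those of Cybb, Ncf4 and Rac2 differ by at most 0.0378.

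Other genes of the oxidase system moved in part. Of 12 further subunit and partner genes 6 were tested, 5 higher and 1 lower, with a median log2 fold change of 0.28, against 0.01 over all tested genes. Over all tested genes 20.4% were higher and 17.5% lower. Hvcn1, the proton channel gene that balances the charge moved by the oxidase, rose 2.53-fold (1.34 ± 0.21, SE; edgeR adjusted p = 0.000459). Rap1b, a small GTPase gene whose relative RAP1A copurifies with the cytochrome, rose by 0.43 on the log2 scale. Cybc1, the gene of a chaperone that gp91phox and p22phox need, rose by 0.19 ± 0.05 (log2, SE), with 26.4 ± 1.63 CPM with NMDA and 23.1 ± 0.641 CPM with PBS (SD, n = 6 each) and all NMDA libraries above all PBS libraries. Noxa1, an activator that works beside NOX1, fell to 2.09 ± 0.623 CPM with NMDA, against 3.92 ± 0.634 CPM with PBS (SD, n = 6 each), by 0.91 on the log2 scale (edgeR adjusted p = 0.00238).

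Of 19 tested receptor and signalling genes upstream of the phagocyte oxidase, 16 were higher and 1 lower, with a median of 1.94. Over all tested genes 20.4% were higher and 17.5% lower. Itgam is on this list and on the microglia list, and not every receptor on it activates. Fcgr2a, an antibody receptor gene with 2 rows in the table and close copies, rose by 2.93 on the log2 scale in the row with more counts, which makes its value uncertain. Syk, the kinase gene downstream of such receptors, rose by 1.52, and Pik3cg, a lipid kinase gene of white blood cells, by 1.74. Prkcb, a kinase gene whose product phosphorylates p47phox, fell by 0.60 (edgeR adjusted p = 6.28e-05), with 45.3 ± 5.26 CPM with NMDA and 68.7 ± 1.97 CPM with PBS (SD, n = 6 each).

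Of 21 tested regulators of RAC, 9 were higher, 6 lower and 6 did not pass, with a median of 0.01. Over all tested genes 20.4% were higher and 17.5% lower. Vav1, an exchange factor gene of blood cells, rose by 2.20 on the log2 scale, and Prex1, another exchange factor gene, by 0.86. Arhgdia, which encodes the inhibitor that holds RAC in the cytosol, rose by 0.98 and reached 226 ± 25.3 CPM with NMDA, against 114 ± 15.4 CPM with PBS (SD, n = 6 each; edgeR adjusted p = 2.45e-05). Elmo1, part of an exchange factor complex, fell by 0.44.

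Of 16 tested genes of superoxide and peroxide handling and of related stress enzymes, 9 were higher, none lower and 7 did not pass, with a median of 0.35. Over all tested genes 20.4% were higher and 17.5% lower. Hmox1, the haem-degrading stress enzyme gene, rose 6.95-fold (2.80 ± 0.38, SE; edgeR adjusted p = 0.000213). Gpx1, a glutathione peroxidase gene, rose 2.13-fold, and the peroxiredoxin genes Prdx1 and Prdx5 by 0.44 and 0.53 on the log2 scale.

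**Figure D4:**
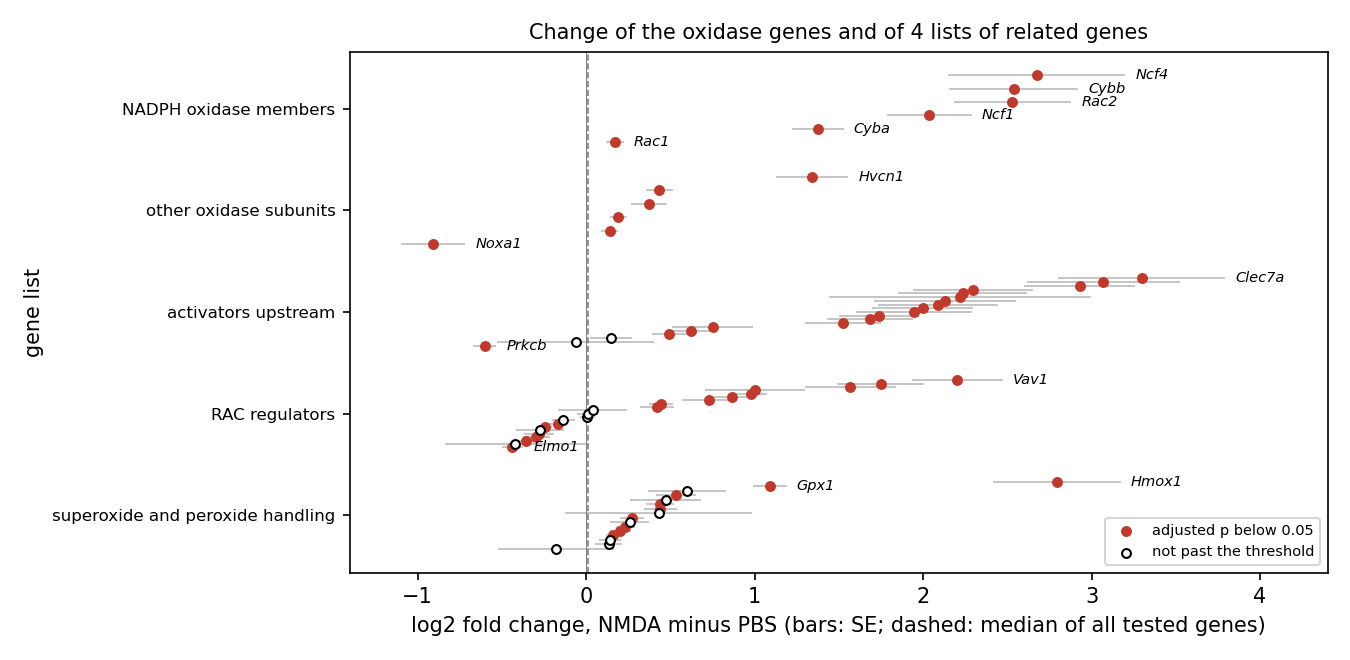
Log2 fold change, NMDA minus PBS, of each tested gene (horizontal axis, bars for the SE) in the 6 tested oxidase members and in 4 lists of related genes (rows). Filled points passed an adjusted p of 0.05 (edgeR), and the dashed line marks the median of all tested genes, 0.01. Ncf4, Cybb, Rac2 and Ncf1 lie above 2, Rac1 near 0, and Noxa1 and Prkcb below 0.

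Ncf4 and Rac2 lie on the same stretch of chromosome 7 with 273 kb between them, a region chosen for description after its values were seen. It holds 14 genes of the table with these 2, of which 8 were tested and 4 were higher. Ncf4 and Rac2 set its bounds and are 2 of these 4. The count can therefore not be set against the 20.4% of all tested genes that were higher. Csf2rb, the shared receptor chain gene for myeloid growth factors, rose 8.64-fold (3.11 ± 0.56, SE; edgeR adjusted p = 0.00110), and Mpst, a sulfurtransferase gene, rose by 0.26. The genes between them that did not pass were Tst (0.20), Kctd17 (-0.18), C1qtnf6 (0.64) and Sstr3 (0.03 on the log2 scale).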

How the data were processed

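Retinal total RNA of 12 rats was measured, 1 library per rat. The authors deposited a whole-number count and an FPKM value for each gene and library, per the file headers. Per the submitters' processing notes, Bowtie2, RSEM 1.3.1 and DESeq2 1.4.5 were used, with no role stated. The build, strand setting and treatment of reads with several matches are not given in the sources used here. Genes were kept by filterByExpr (count minimum 10, total minimum 15), counts scaled by TMM (factors 0.976 to 1.034) and tested with edgeR 4.0.16 in R 4.3.3 (robust quasi-likelihood, two-sided, group as the only term). DESeq2 1.42.0 and limma 3.58.1 served as alternatives. The test was checked on simulated data. Log2 CPM used a prior count of 2, and pair ratios a pseudocount of 0.5. The members and lists were chosen with earlier results of these data known, and the comparison of pairs was added after the data were seen. Named were all members, up to 4 genes per list with the smallest adjusted p, and the 3 genes most alike in pattern among genes whose mean log2 CPM was 1 or more. The untested neutrophil markers were named as well. A gene of the lists is not reported here. Of each name with 2 rows the row with more counts was used. No 2 libraries held the same counts. Nothing says that equal replicate numbers mark a shared litter or day. The p-values rest on the spread between libraries, 1 per rat. Litter, day and batch are not given, so that their part in this spread or in the group difference cannot be told apart.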

Additional observations from a re-analysis of the deposited data

Results flagged for a closer look

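Nox4 in NMDA 3, at 0.697 CPM (24 counts), stood far from the other NMDA libraries, the next of which, NMDA 6, had 0.104 CPM. By Dixon's test for an outlying value it was the 1 library set apart among 16 groups of 6 examined (8 genes in 2 groups). Its nominal rate of 1 group in 20 is for independent, normally spread values. It need not hold for such low counts, nor for genes measured in the same libraries. In NMDA 3 the 9 pigment epithelium markers summed to 731 CPM, against 40.3 to 121 CPM in the other NMDA libraries, and the 8 pericyte and smooth muscle markers to 358 CPM, against 95.2 to 142 CPM. Their part in the Nox4 counts was not tested.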

How the results depend on the processing

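Each of the 6 tested members was fitted under 22 alternatives: other scalings, filters, tests and units, each library left out, a replicate block, and, added after the data were seen, the fit without PBS 5, NMDA 1 and NMDA 3. Cybb, Cyba, Ncf1, Ncf4 and Rac2 passed as higher in all of them. With limma on log2(FPKM + 1), whose pseudocount of 1 shrinks low genes, Cybb, Ncf1, Ncf4 and Rac2 were at 1.67, 1.46, 1.44 and 1.50, and without the 3 libraries Ncf4 was at 3.35. Rac1 lost its call in 5 fits: with 1 library left out it ranged from 0.15 to 0.20, and without the 3 libraries it was 0.15 (edgeR adjusted p = 0.110). The members called numbered 5 or 6 throughout, and all genes called 5287 to 7090. With library size only, 4233 of all genes were higher and 2323 lower, against 3315 and 2852 with TMM. With the replicate block 6 members and 5593 genes passed. Libraries of equal number correlated from -0.19 to 0.15 in their deviations, and 0 of 6 NMDA libraries matched best with their own number, so that the numbers were not taken as pairs. Counts of the 4 related lists stayed within 1.5 times. Set against monocyte and macrophage in place of microglia markers, Cybb, Ncf4, Rac2 and Ncf1 were no longer past the threshold (0.0107, 0.0378, -0.00536 and -0.54), and Cyba, at -1.17, passed in the other direction. The cause was not tested. Low counts limit Ncf4, Nox1 and Nox4.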
